A study of Mus musculus with 11 samples.

Results

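Fat cells leave their own transcripts in a muscle sample whenever fat lies between the fibres or is taken along with the muscle. The genes examined numbered 10, in 3 sets by their role: Adipoq, Lep, Retn and Cfd, which encode secreted proteins, Plin1, Cidec, Cidea and Fabp4, which encode proteins of the lipid droplet and a fatty acid carrier, and Ucp1 and Otop1, known from brown fat. They were chosen by name, as every probe whose annotated symbol, current or former, was 1 of the 10. Probes were found for 8 genes (9 probes in all), while the platform annotation used here, which leaves 10378 probes with no symbol, ties no probe to Cfd or Otop1, and neither is analysed here. A gene was tested where a probe of it had a detection p under 0.01 throughout 1 group or more, and 7 of the 10 (Adipoq, Lep, Plin1, Cidec, Cidea, Fabp4 and Ucp1) were thus tested among 10134 genes.

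White fat cells hold a single large droplet of triglyceride and release hormones such as leptin, which reports fat stores to the brain, and adiponectin, which acts on liver and muscle. Brown fat cells hold many small droplets and burn fatty acids for heat through the uncoupling protein Ucp1 of the inner mitochondrial membrane. In cachexia, the wasting that accompanies many tumors, stored fat is drawn down together with muscle.

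The samples were quadriceps of female CD2F1 mice, 5 to 6 weeks of age, with 1 mouse per array and 11 arrays. In all, 4 mice had severe cachexia (15% weight loss) and 3 had moderate cachexia (10% weight loss), in both cases after an implant of C26 colon adenocarcinoma cells, while 4 control mice carried no tumor. The labels give the implant site as intrascapular and the methods as the flank, and this difference was not settled. All groups were whole quadriceps, so RNA of fibres, fat, vessels and nerve was measured together, and mice are named here by the number on their array. Most fibre genes lay among the brightest probes, with group means of 13.4 to 14.7 on the log2 scale for all but Myh7 of 11, where quantile normalization itself holds arrays alike. As the log2 difference from the mean of the controls, the median of the 11 ran from -0.10 to -0.05 in severe cachexia, from -0.08 to -0.04 in moderate cachexia and from -0.05 to 0.02 among the controls. Between 18626 and 20006 of the 45281 probes were detected on each array at a detection p under 0.01.

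Severe mouse 11 stood apart from the other severe mice in these genes, and their results in severe cachexia are given with and without it. Values of genes in the other lists are with all arrays unless stated. In mouse 11, 6 of the 7 tested genes were at or above the lowest control, whereas in severe mice 13, 15 and 16 all 7 were below every control. Macrophage markers were also high in mouse 11. The median log2 difference of 6 such genes was 1.45 there, 0.11 to 0.37 in severe mice 13, 15 and 16, 0.41 to 0.76 in moderate mice and -0.12 to 0.09 in controls. Summed over the 6 genes, the macrophage signal was 5897 in mouse 11, 2822 to 2934 in its severe counterparts, 2812 to 3655 in moderate mice and 1785 to 2147 in controls. The part that such cells had in the levels of the fat genes was not tested.

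Fat genes are switched on during fat cell development by PPARgamma, a nuclear receptor, and by C/EBPalpha, a factor that binds elements such as TTGCNNAA. Promoters of 8 of the 10 genes were found in the RefSeq table (build GRCm38.p6). In the 250 bases before the start, read on both strands, the element stood in Lep, in Plin1 and at 1 of the 2 starts of Cidec, and not in the windows of Adipoq, Retn, Cfd, Otop1 or Ucp1. It is present in 9.56% of all 32851 promoter windows of that length. Windows of Cidea and Fabp4 were not examined. The last 200 bases before the start are shown for the 3 genes that hold it, each on the strand of its gene, with the element in capitals.
Lep (chr6:29060021-29060220, + strand): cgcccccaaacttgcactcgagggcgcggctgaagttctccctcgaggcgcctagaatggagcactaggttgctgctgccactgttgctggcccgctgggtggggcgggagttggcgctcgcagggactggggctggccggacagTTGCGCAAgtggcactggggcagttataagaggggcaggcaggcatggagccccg
Plin1 (chr7:79732777-79732976, - strand): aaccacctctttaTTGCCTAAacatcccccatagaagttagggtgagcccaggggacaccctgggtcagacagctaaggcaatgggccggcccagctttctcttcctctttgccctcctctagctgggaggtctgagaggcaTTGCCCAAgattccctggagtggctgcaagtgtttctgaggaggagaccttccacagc
Cidec (chr6:113434765-113434964, - strand): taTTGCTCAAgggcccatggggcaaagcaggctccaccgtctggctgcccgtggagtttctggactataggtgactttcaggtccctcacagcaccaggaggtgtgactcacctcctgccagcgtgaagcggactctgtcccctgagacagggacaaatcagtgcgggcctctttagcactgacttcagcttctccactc
In Lep the element begins 55 bases before the start and reads the same on both strands. Plin1 holds it 187 and 58 bases before the start, and Cidec 198 bases before. In all, 4 motifs were searched, and the C/EBP element is shown because 3 of the fat genes held it. The CCAAT box (CCAAT, in 33.8% of all windows) was found in Adipoq, the nuclear receptor half-site (AGGTCA, in 14% of all windows) in Ucp1, and the TATA box (TATAAA, in 12.4% of all windows) in none of these windows. A match is a stretch of letters and was not tested for binding.

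As a group, the fat transcripts were low in quadriceps of 3 of the 4 severe mice and of every moderate mouse. In severe cachexia 4 of the 7 tested genes fell (limma, Benjamini-Hochberg adjusted p under 0.05), where 17.8% of all genes fell, and without mouse 11 all 7 fell, where 20.8% of all genes did. In moderate cachexia 6 of 7 fell, where 22.2% of all genes fell. The severe count was 2 of 7 without severe mouse 13, severe mouse 15, control mouse 2 or control mouse 3, and 1 of 7 without severe mouse 16, and the moderate count was 3 of 7 without moderate mouse 12. All arrays of the group lay below all controls for 1 of 7 genes in severe cachexia (17.3% of all genes), for 7 of 7 without mouse 11 (23.4%) and for 6 of 7 in moderate cachexia (25.0%). Fabp4 and Ucp1 entered the test only through the controls, since neither was detected on every array of another group, so these counts describe the genes that passed and are no independent evidence. Mouse 11 was singled out on the levels of these same genes, so the counts and p-values without it are a description of the other arrays and likewise no independent evidence. With bulk RNA, fewer fat cells and less of each transcript per fat cell cannot be told apart.

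**Figure D1:**
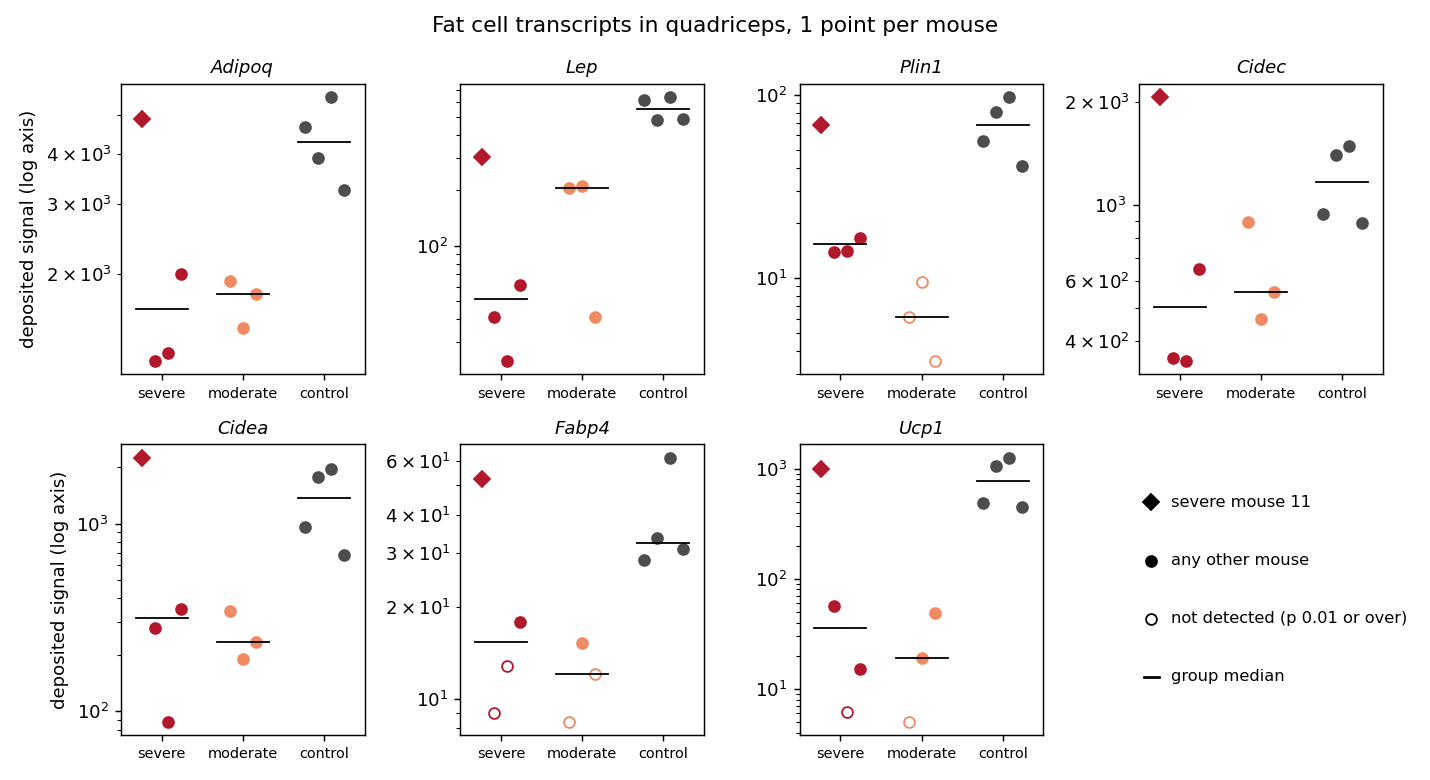
Deposited signal of the 7 tested fat genes on a log axis, 1 point per mouse, with severe, moderate and control mice from left to right, a line at each group's median, and open points where the probe was not detected. The diamond of severe mouse 11 lies within or above the controls in every panel but Lep, where it was 304 against 478 to 641 in controls.

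To describe the level of these transcripts in each sample, the signal of each gene was set as a percentage of its control mean. The median over the 7 genes was then taken per array. This median was 121% in severe mouse 11 and 20.7%, 20.5% and 26.2% in severe mice 13, 15 and 16. Moderate mice 5, 9 and 12 were at 25.6%, 33.7% and 17.5%, and control mice 1 to 4 were at 80.1%, 117%, 142% and 74.7%. Leaving out mouse 11, no cachectic mouse came within the range of the controls in this median. Single genes differed widely within an array, from 0.616% to 75.5% in moderate mouse 5 and from 1.84% to 55.3% in severe mouse 16. Fabp4 and Ucp1 are among the 7 and passed the filter only through the controls. The median is therefore a description and no independent evidence.

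**Figure D2:**
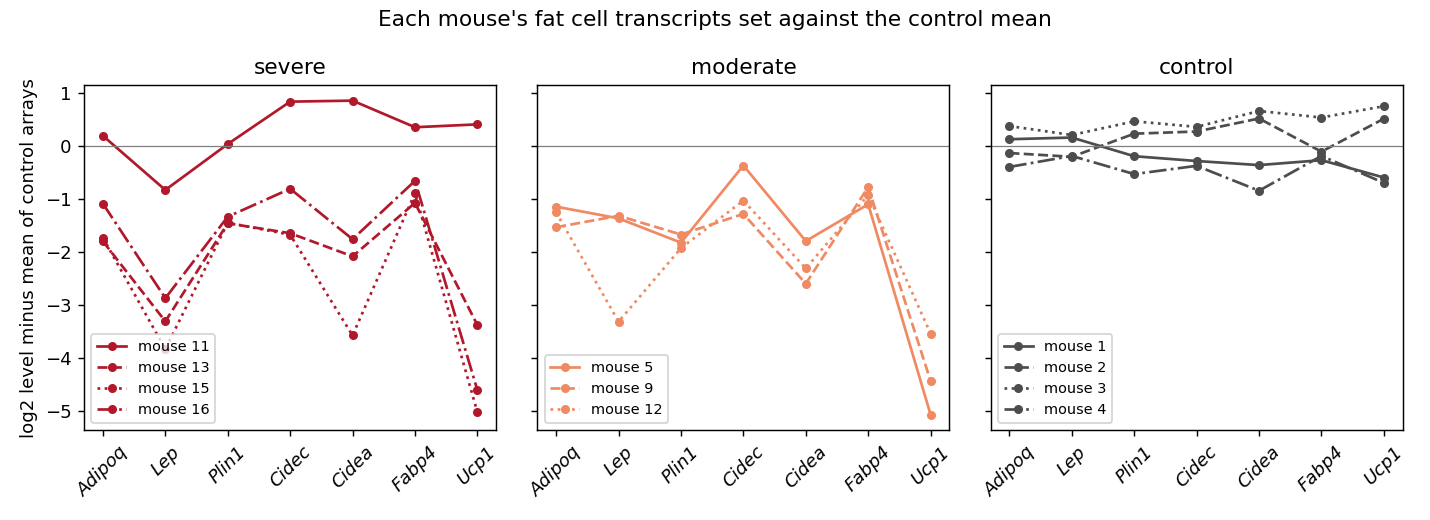
Log2 level of each fat gene minus the mean of the 4 control arrays, 1 line per mouse, with a panel each for severe, moderate and control mice. Severe mouse 11 runs between -0.83 and 0.86, and the other cachectic mice lie below 0 for every gene, deepest at Ucp1 in each of the 6, though Ucp1 was not detected in severe mouse 15 and moderate mouse 5.

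Among the secreted proteins, Adipoq encodes adiponectin, a hormone that both kinds of fat cell release. Its signal was 4894 in severe mouse 11 and 1215, 1273 and 2000.0 in severe mice 13, 15 and 16. It was 1923, 1465 and 1782 in the moderate mice, and 4679, 3901, 5559 and 3248 in the controls. Every cachectic mouse other than mouse 11 was below every control, and mouse 11 was above 3 of the 4 controls. Adipoq fell in both stages, with a log2 fold change of -1.10 ± 0.34 (SE) in severe cachexia (limma adjusted p = 0.0262) and -1.31 ± 0.37 in moderate cachexia (adjusted p = 0.0142). Without mouse 11 the severe change was -1.54 ± 0.20, a 2.90-fold lower level (adjusted p = 0.000127). The severe call was lost without control mouse 1 or 3 or severe mouse 13, 15 or 16 (adjusted p = 0.0566 to 0.0796).

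Lep, the gene for leptin, was the only one of the 7 tested genes with every severe mouse below every control. Its signal was 304 in severe mouse 11 and 41.3, 23.8 and 61.5 in severe mice 13, 15 and 16. It was 204, 212 and 41.0 in moderate mice 5, 9 and 12, and 619, 478, 641 and 484 in controls. The moderate mice were therefore split, with mouse 12 at the level of severe mouse 13 and mice 5 and 9 far above it. Lep was 6.55-fold lower in severe cachexia, a log2 fold change of -2.71 ± 0.56 (SE, limma adjusted p = 0.00335), and 3.99-fold lower in moderate cachexia (SE 0.60 in log2 units, adjusted p = 0.0183). Without severe mouse 11 the severe change was -3.34 (10.1-fold lower, adjusted p = 5.98e-05), and without moderate mouse 12 the moderate change of -1.34 did not pass (adjusted p = 0.101).

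Lep and Adipoq did not keep the same proportion. With each gene as log2 difference from its control mean, Lep minus Adipoq was -1.03 in severe mouse 11 and -1.51, -2.11 and -1.79 in severe mice 13, 15 and 16. It was -0.22 and 0.22 in moderate mice 5 and 9 and -2.07 in moderate mouse 12, while controls ran from -0.17 to 0.21. Thus all 4 severe mice, mouse 11 included, and 1 moderate mouse had less leptin transcript than their adiponectin transcript would give at the control proportion. The difference of differences was not tested.

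**Figure D3:**
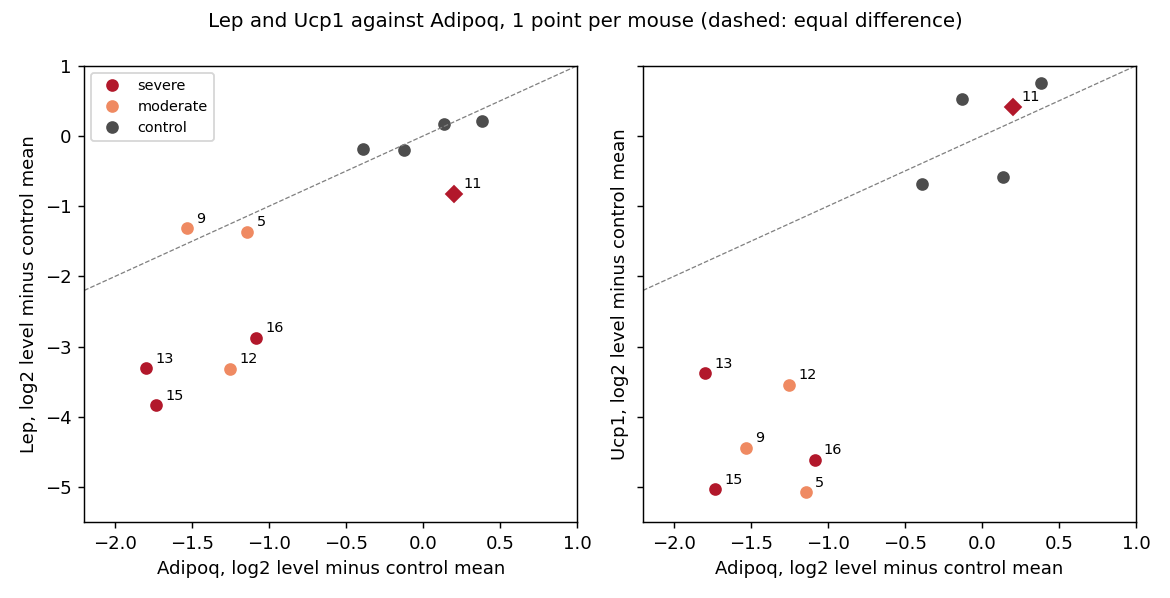
Lep (left) and Ucp1 (right) against Adipoq, each as log2 level minus the control mean, 1 point per mouse, with cachectic mice numbered and a dashed line where both differ equally. Moderate mice 5 and 9 lie on the line for Lep, the 4 severe mice lie 1.03 to 2.11 below it, and for Ucp1, not detected in severe mouse 15 and moderate mouse 5, severe mouse 11 lies among the controls.

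Retn, which encodes resistin, a hormone made by fat cells in mice, was near background. Its probe was detected only in severe mouse 11, at a signal of 14.3. Severe mouse 16 had 14.1 with a detection p of 0.0111 and was not counted as detected, and the other arrays ran from -7.92 to 11.3. Retn did not pass the filter and was not tested.

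The droplet genes followed. Plin1 encodes perilipin 1, which coats the droplet and holds lipases back until hormones call for fat. Its signal was 68.3 in severe mouse 11 and 13.9, 14.1 and 16.6 in severe mice 13, 15 and 16. It was 6.11, 9.45 and 3.52 in the moderate mice and 55.9, 80.6, 97.5 and 40.9 in controls. It was not well above background on any of the 3 moderate arrays. The moderate level was at least 2.72-fold lower than control, a bound set by the lowest signal of detected probes on each array. The bound was not tested, and the change as measured was -1.805 in log2 units (limma adjusted p = 0.00127). In severe cachexia Plin1 fell, with a log2 fold change of -1.05 ± 0.30 (SE, adjusted p = 0.019), or -1.41 ± 0.20 without mouse 11 (adjusted p = 0.000201). The severe call was lost without control mouse 2 or 3 or severe mouse 13, 15 or 16 (adjusted p = 0.0515 to 0.0589). All 4 severe mice were above all 3 moderate mice, yet the severe minus moderate difference of 0.76 did not pass the test across all genes (95% confidence interval 0.05 to 1.47, adjusted p = 0.181). A second Plin1 probe was detected on no array and was not tested.

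Cidec and Cidea belong to the CIDE proteins, which sit where droplets touch and help them to merge. Cidec, abundant in white fat, had a signal of 2076 in severe mouse 11 and 357, 349.8 and 652 in severe mice 13, 15 and 16. It was 889.7, 464 and 556 in moderate mice 5, 9 and 12, and 945, 1398, 1487 and 886 in controls. Mouse 11 was above every control, and moderate mouse 5 lay level with the lowest control. Cidec did not pass in either stage, at -0.82 in severe cachexia (95% confidence interval -1.78 to 0.14, limma adjusted p = 0.173) and -0.89 in moderate cachexia (-1.93 to 0.15, adjusted p = 0.155). Without severe mouse 11 it fell by 1.37 in severe cachexia (adjusted p = 0.00138), and the moderate change of -0.89 then passed as well (adjusted p = 0.0146), in a fit whose groups share 1 estimate of spread. The moderate change also passed when the fit held only moderate and control arrays (adjusted p = 0.00942).

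Cidea, best known from brown fat, had a signal of 2243 in severe mouse 11 and 277, 88.2 and 351 in severe mice 13, 15 and 16. It was 342, 189 and 235 in moderate mice, and 955, 1771, 1956 and 678 in controls. Mouse 11 was again above every control, and the other cachectic mice were below all of them. Cidea fell 4.70-fold in moderate cachexia, a log2 fold change of -2.23 ± 0.74 (SE, limma adjusted p = 0.0279). In severe cachexia the change of -1.64 did not pass (95% confidence interval -3.11 to -0.17, adjusted p = 0.081), and without mouse 11 it was -2.47 (5.55-fold lower, adjusted p = 0.000627). The moderate call was lost when control mouse 2 or 3 or any moderate mouse was left out (adjusted p = 0.0551 to 0.0737).

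Fabp4 encodes a carrier of fatty acids in the cytoplasm of fat cells, also made by macrophages and small vessels. Its probe was dim, at 52.4 in severe mouse 11 and 9.0, 12.8 and 17.9 in severe mice 13, 15 and 16. It was 8.42, 15.2 and 12.1 in moderate mice, and 28.4, 33.7, 61.6 and 30.9 in controls. Leaving out mouse 11, all cachectic mice were below all controls. Fabp4 was detected in 2 of 4 severe mice, in 1 of 3 moderate mice and in all 4 controls. It thus passed the filter only through the controls, and its p-values are no independent evidence of a fall. Fabp4 fell in moderate cachexia, with a log2 fold change of -0.93 ± 0.29 (SE, limma adjusted p = 0.022), and its severe change was -0.56 with mouse 11 (adjusted p = 0.125) and -0.87 without it (adjusted p = 0.00293). The moderate call was lost without control mouse 3 or moderate mouse 5 or 12 (adjusted p = 0.0571 to 0.0856).

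Ucp1 encodes the heat-producing protein of brown fat. Its signal was 992 in severe mouse 11 and 56.8, 6.20 and 15.0 in severe mice 13, 15 and 16. It was 5.04, 19.0 and 49.0 in moderate mice, and 486, 1069, 1263 and 452.5 in controls. Ucp1 was thus plainly detected in every control quadriceps and was at that level in mouse 11. It was detected in 3 of 4 severe mice and 2 of 3 moderate mice, but not in severe mouse 15 or moderate mouse 5. Ucp1 fell in both stages, with a log2 fold change of -3.15 in severe cachexia (95% confidence interval -5.09 to -1.21, limma adjusted p = 0.0177). In moderate cachexia the change was -4.35 (-6.45 to -2.25, adjusted p = 0.00398). Without mouse 11, singled out on these same genes, the severe change was -4.34 (-5.30 to -3.38, adjusted p = 2.67e-05). Ucp1 passed the filter only through the controls, so these p-values are no independent evidence of a fall. The severe call was lost without control mouse 2 or severe mouse 16 (adjusted p = 0.0501 and 0.059), and on the deposited ratios neither stage passed (adjusted p = 0.203 in severe and 0.102 in moderate cachexia).

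In the cachectic mice other than severe mouse 11, Ucp1 was further below control than Adipoq. Taken the same way as for Lep, Ucp1 minus Adipoq was 0.22 in severe mouse 11 and -1.58, -3.30 and -3.53 in severe mice 13, 15 and 16. It was -3.94, -2.91 and -2.29 in moderate mice 5, 9 and 12 and -0.73 to 0.65 in controls. Ucp1 was not detected in severe mouse 15 and moderate mouse 5, and with Ucp1 there at the lowest level of a detected probe on that array the differences were -2.96 and -3.48, so that these arrays give a bound only. Apart from mouse 11, no cachectic mouse lay within the range of the controls. This contrast was not tested.

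**Figure D4:**
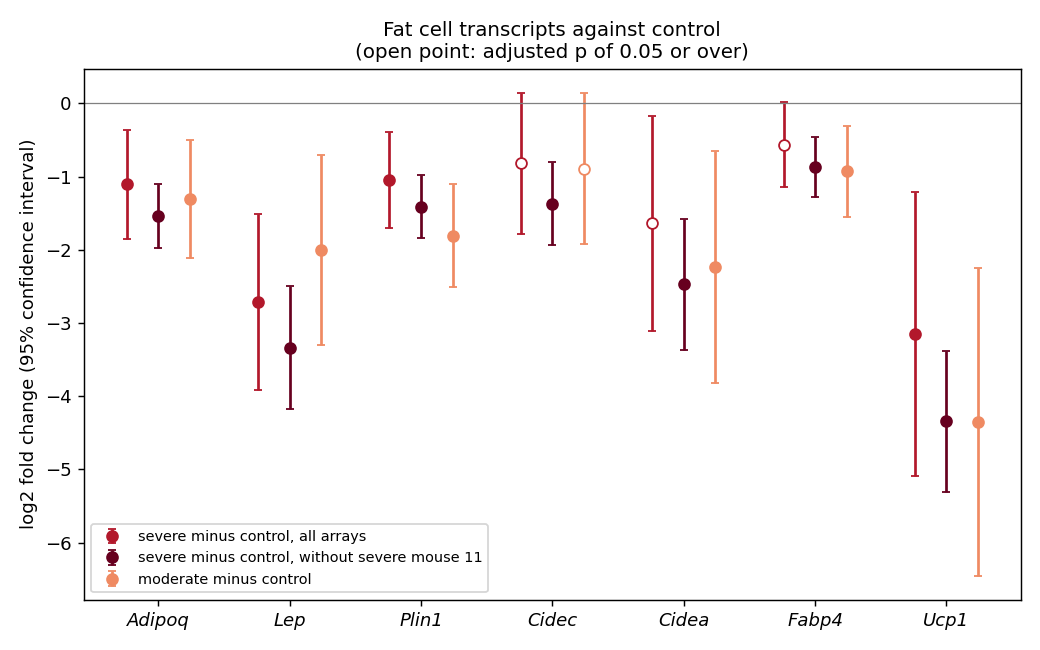
Log2 fold change against control with its 95% confidence interval for the 7 tested fat genes, for severe cachexia with all arrays, severe cachexia without mouse 11, and moderate cachexia, with open points where the adjusted p was not under 0.05. Leaving out mouse 11 moves every severe estimate down and narrows every severe interval, with a new estimate of -4.34 for Ucp1.

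No tested fat gene differed between the stages by the test. Between severe and moderate cachexia 0 of the 7 genes passed (limma adjusted p under 0.05, where 6.98% of all genes passed), 1 of 7 had an unadjusted p under 0.05 (Plin1), and the methods' t-test also gave 0 after Benjamini-Hochberg adjustment. Without severe mouse 11 it was again 0 of 7, where 6.37% of all genes passed, with Lep at an unadjusted p under 0.05. Lep then differed by -1.34 (95% confidence interval -2.24 to -0.44, adjusted p = 0.071), severe minus moderate, and Ucp1 by 0.01 (-1.02 to 1.04, adjusted p = 0.99). These intervals leave room for a difference of 2-fold either way for Ucp1, so like levels in the stages were not shown.

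The 7 genes also varied together from mouse to mouse, more so with mouse 11 than without. Over 11 arrays, after subtraction of each group's mean, the correlation between members had a median of 0.82 over 21 pairs, with a range of 0.59 to 0.94. Cidec and Cidea were at 0.94 and Lep and Ucp1 at 0.59. Without severe mouse 11 the median was 0.40, with a range of -0.34 to 0.80, and Cidec and Cidea were at 0.80 while Lep and Ucp1 were at -0.34. These are descriptions over few arrays that share 1 normalization.

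Genes outside the list were also ranked by how they varied within groups, as the correlation of their deviations with the mean deviation of the 7. Group means were subtracted, so a high correlation does not mean a like fall. The 8 closest were Pfkl (0.99), 1700037H04Rik (0.99), Prkar2b (0.99), Cd1d1 (0.98), C730029A08Rik (0.98), Agpat2 (0.98), Idh3b (0.97) and Pygb (0.97). Pfkl encodes the liver-type phosphofructokinase, Prkar2b a regulatory subunit of the cyclic AMP-dependent kinase, and Agpat2 an acyltransferase of triglyceride synthesis. Prkar2b had a signal of 2518 in severe mouse 11 and 328, 195.5 and 301 in severe mice 13, 15 and 16. It was 331, 254 and 240.0 in moderate mice, and 1463, 1807, 2146 and 1167 in controls. A correlation above 0.9 was found for 105 of 10127 genes with all arrays, and for 5 of 10183 without mouse 11, while 10 and 4 genes were below -0.9. Without mouse 11, Pfkl was at 0.97, Prkar2b at 0.94 and 1700037H04Rik at 0.93, and the rest of the 8 were at 0.83 to 0.90. With all arrays, Pfkl and 1700037H04Rik passed in neither stage (limma adjusted p = 0.5 and 0.799 in severe, 0.134 and 0.28 in moderate cachexia). In mouse 11 their signals were 1131 and 4211, against 308 to 564 and 571 to 1105 in controls. Without it, Pfkl fell by 1.04 in severe cachexia (adjusted p = 0.000838) and 1700037H04Rik did not pass (adjusted p = 0.0714).

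Other genes of white fat cells were counted from a wider list of 24, of which 20 were tested. In severe cachexia 7 fell and 3 rose (17.8% of all genes fell and 15.6% rose), with a median log2 change of -0.63 beside 0.01 over all genes. Without mouse 11, 14 of 21 tested fell and 3 rose (20.8% and 19.6% of all genes), with a median of -1.08 beside 0.01. In moderate cachexia 11 fell and 3 rose (22.2% and 18.9% of all genes), with a median of -1.10 beside -0.03. Sncg, a synuclein abundant in fat cells and nerve, fell by 2.01 in severe and 2.04 in moderate cachexia (limma adjusted p = 5.85e-06 and 5.56e-06). Every severe mouse, mouse 11 included, was below every control for Sncg, and without mouse 11 it fell by 2.06 (adjusted p = 3.68e-06). Its low level in mouse 11 is unlike most of the 7 fat genes. Rbp4, a carrier of retinol, fell by 1.60 and 2.11 (adjusted p = 0.00458 and 0.00109).

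The members of that list that rose were Plin4, Pnpla2 and Agt. Pnpla2, the lipase that begins the breakdown of triglyceride, rose by 1.03 in severe cachexia (limma adjusted p = 0.00125) and 1.15 in moderate cachexia (adjusted p = 0.00079). Plin4, a droplet coat protein that muscle also makes, rose by 0.57 and 1.11 (adjusted p = 0.00921 and 0.000256), and Agt, the precursor of angiotensin, by 0.99 and 1.42 (adjusted p = 0.0418 and 0.0096). The genes for the 2 factors of fat development did not pass in both stages: Cebpa was at -0.68 in severe cachexia (adjusted p = 0.0675) and -0.79 in moderate cachexia (adjusted p = 0.0442), and Pparg at -0.85 in both (adjusted p = 0.0712 and 0.0797). Without mouse 11, both fell in severe cachexia, Cebpa by 1.01 and Pparg by 1.29 (adjusted p = 0.000575 and 0.000132).

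**Figure D5:**
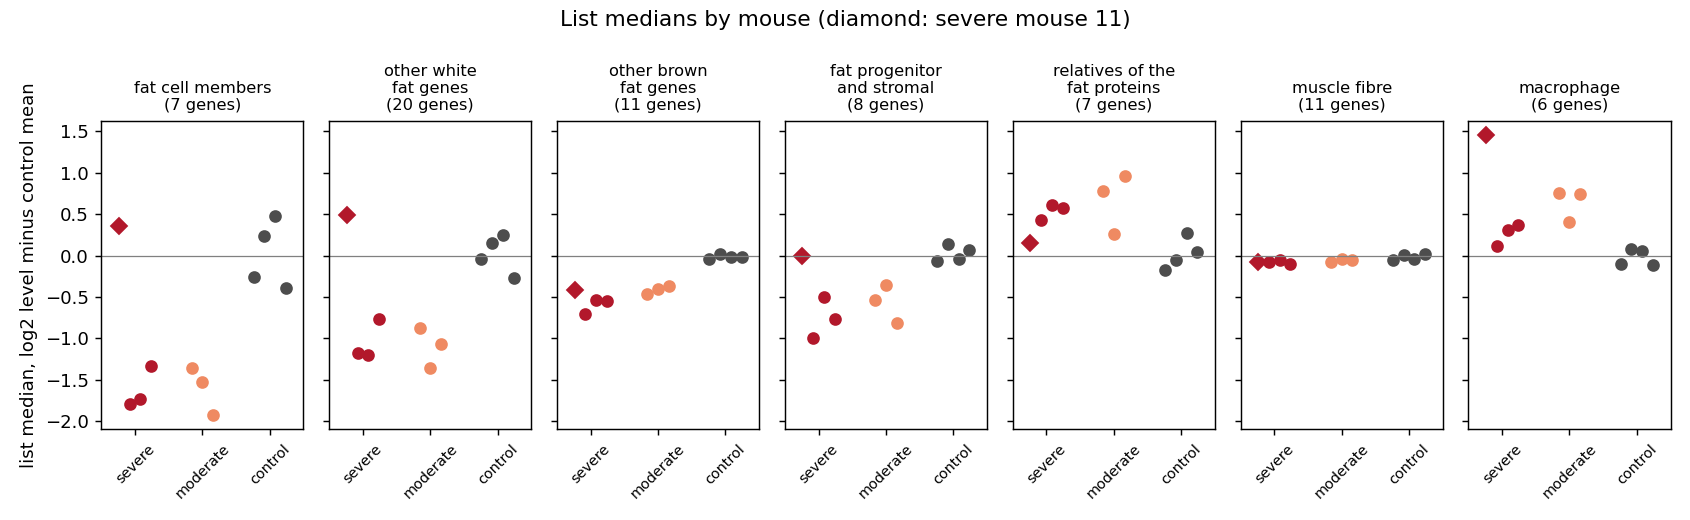
Median over each gene list of the log2 level minus the control mean, 1 point per mouse, with severe, moderate and control mice from left to right and a diamond for severe mouse 11. Fat genes of mouse 11 lie at 0.36 and its macrophage genes at 1.45, while the medians of muscle fibre genes, most of them near the top of the scale, lie between -0.10 and 0.02.

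Of 17 other genes linked to brown fat, 11 were tested. In severe cachexia 5 fell, where 17.8% of all genes fell, with a median log2 change of -0.35 beside 0.01 over all genes. Without mouse 11, 6 fell (20.8% of all genes), with a median of -0.63 beside 0.01. In moderate cachexia 5 fell (22.2% of all genes) and 1 rose (18.9%), with a median of -0.57 beside -0.03. Cox7a1, a respiratory chain subunit that muscle and brown fat share, fell by 1.70 in severe and 0.83 in moderate cachexia (limma adjusted p = 0.000257 and 0.0151), and the 2 stages differed for it by -0.87 (adjusted p = 0.0471). Slc27a2, a fatty acid transporter, fell by 1.79 and 1.99 (adjusted p = 0.00724 and 0.00485). Among transcription factors, Ebf2 fell by 0.57 in each stage (adjusted p = 0.0104 and 0.0119), while Prdm16 and Zic1 did not pass, at 0.01 and -0.11 in severe cachexia and -0.22 and -0.10 in moderate cachexia. Both of these probes were dim, with group means of 4.99 to 5.21 on the log2 scale. There was little room there for a large fall to be seen, so unchanged levels were not shown. Cox8b, another respiratory chain subunit, and the nuclear receptor Ppara fell in severe cachexia, by 0.51 and 0.69 (adjusted p = 0.00552 and 0.00926), and were at -0.25 and -0.17 in moderate cachexia (adjusted p = 0.127 and 0.486). Acot11, a thioesterase, was at -0.30 in severe cachexia (adjusted p = 0.639), or fell by 0.93 there without mouse 11 (adjusted p = 0.000747), and fell by 1.76 in moderate cachexia (adjusted p = 0.0124). Dio2, a deiodinase that activates thyroid hormone, was at -0.28 in severe cachexia (adjusted p = 0.215) and fell by 0.58 in moderate cachexia (adjusted p = 0.0239). Its probe was also dim, with means of 5.36 in controls and 4.78 in moderate cachexia. The gene that rose in moderate cachexia was the coactivator Ppargc1a, by 0.69 (adjusted p = 0.0203), which was at -0.35 in severe cachexia (adjusted p = 0.183). Unlike the 7 fat genes, the brown list of mouse 11 had a median below every control, at -0.42, with -0.70 to -0.54 in severe mice 13, 15 and 16, -0.47 to -0.37 in moderate mice and -0.04 to 0.02 in controls. Within mouse 11 the 11 genes ranged from -1.43 to 1.60, and Ucp1 (0.42) and Cidea (0.86) were above their control means. The list holds genes that muscle shares, such as Cox7a1, so its median is no measure of brown fat alone.

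Relatives of the fat proteins, several of which muscle itself makes, were counted in the same way. Of 7 tested, 2 rose and 1 fell in severe cachexia, where 15.6% of all genes rose and 17.8% fell. Without mouse 11, 4 rose and 1 fell (19.6% and 20.8% of all genes), and in moderate cachexia 3 rose and 1 fell (18.9% and 22.2% of all genes). Ucp3, the uncoupling protein of muscle, rose by 1.64 in moderate cachexia (limma adjusted p = 0.000593) and was at 0.32 in severe cachexia (adjusted p = 0.331), a difference between the stages of -1.33 (adjusted p = 0.0116). Plin5, which coats droplets in oxidative tissue, rose by 1.17 in moderate cachexia (adjusted p = 0.00679), and its severe change of 0.63 did not pass (adjusted p = 0.0883) unless mouse 11 was left out (0.87, adjusted p = 0.00954). Retnlg, a resistin-like gene of myeloid cells, rose by 1.50 in severe cachexia (adjusted p = 0.00265).

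On the receiving side, 1 of 4 tested receptors and partners of the fat hormones fell in each stage, where 17.8% of all genes fell in severe and 22.2% in moderate cachexia, so the count is near the general share. Cdh13, which binds adiponectin at the surface of vessel and muscle cells, fell by 1.62 in severe and 1.28 in moderate cachexia (limma adjusted p = 0.000113 and 0.00045), and by 1.74 in severe cachexia without mouse 11 (adjusted p = 2.43e-05). Adipor1 and Adipor2, the adiponectin receptors, had changes of -0.15 and 0.25 in severe cachexia (adjusted p = 0.44 and 0.125) and -0.26 and 0.26 in moderate cachexia (adjusted p = 0.203 and 0.124). Among 8 tested genes of fat progenitors and stroma, 3 fell in severe cachexia (17.8% of all genes), 5 without mouse 11 (20.8%) and 4 in moderate cachexia (22.2%). Among them was Col15a1, a collagen of basement membranes, by 1.31 and 1.54 (adjusted p = 0.000407 and 0.000162). Pdgfra and Pi16 of the same list did not pass. They were at 0.171 and -0.065 in severe cachexia (adjusted p = 0.541 and 0.911) and 0.106 and 0.085 in moderate cachexia (adjusted p = 0.723 and 0.882).

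Other cell types that a quadriceps sample can hold were read beside these, and with so few genes per list the counts were read against the share of all genes, which was 17.8% lower and 15.6% higher in severe cachexia, 20.8% and 19.6% there without mouse 11, and 22.2% and 18.9% in moderate cachexia. Of 11 muscle fibre genes 2 fell in severe cachexia, near the general share, and 1 in moderate cachexia, below it. Mb, the oxygen store of fibres, fell by 0.73 in severe cachexia (limma adjusted p = 0.0121) and was at -0.20 in moderate cachexia (adjusted p = 0.462). Myh7, the slow myosin, fell in both (limma adjusted p = 0.0435 and 0.0342), though not in severe cachexia without mouse 11 (adjusted p = 0.0634). Of 6 macrophage genes 3 rose in each stage and 2 in severe cachexia without mouse 11, with Cd163 up by 1.43 in severe and 1.60 in moderate cachexia (adjusted p = 0.00068 and 0.000422). Of 6 endothelial genes 1 rose in moderate cachexia (Pecam1, by 0.40, adjusted p = 0.0427), and its severe change was 0.34 (adjusted p = 0.0686). Of 3 peripheral nerve genes 1 fell in severe cachexia (Mbp, by 0.55, adjusted p = 0.0203) and 2 without mouse 11, and none of 5 lymphocyte genes on the array passed the detection filter. Of 8 skin and mammary genes 1 was tested, Krt8, which rose by 0.47 in moderate cachexia (adjusted p = 0.0464). Its probe was dim, at 43.6 in moderate mouse 12 and 19.1 and 22.3 in moderate mice 5 and 9, against 12.7 to 19.3 in controls. The part of these cells in the fat gene levels was not tested.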

How the data were processed

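Quadriceps RNA of 11 mice was hybridised to Illumina MouseWG-6 v2.0 BeadChips. The intensity values deposited by the authors came from BeadStudio and GeneSpring GX 7.3. They were background-subtracted (28.5% were below 0), and at equal rank the arrays differed by at most 0.319, as after quantile normalization. The deposited p-value is a detection p for every probe on every array. The deposited ratio values equalled the intensities floored at 1 over the control median, within a relative tolerance of 0.001 for 100% of values. The number of arrays limits the precision. Column names gave a group and a number only, and that number is used here to name the mouse. Test p-values set a difference between groups against the spread between mice.

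Intensities went through neqc in limma 3.58.1 (R 4.3.3), with normexp from the detection p, an offset of 16, quantile normalization and log2. The procedure was tested on simulated data. A probe was retained if its detection p was under 0.01 throughout 1 group or more, which left 18837 of 45281 probes, of which 16074 had 1 gene symbol in the platform annotation (34885 probes had 1 symbol, 18 several and 10378 none). The probe with the highest mean stood for its gene. A single limma model with 3 group means (lmFit, eBayes with an intensity trend) used all arrays, with Benjamini-Hochberg adjustment over 10134 genes and a threshold of 0.05. Fold changes are on the offset log2 scale, which understates changes of dim probes.

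The fat genes and all gene lists were chosen with earlier results of these data known. Genes named were all members, up to 4 genes of each other list with the smallest adjusted p in either stage, and the 8 genes most alike in pattern. Agt, Cebpa, Pparg, Ebf2, Prdm16, Zic1, Acot11, Dio2, Ppargc1a, Pdgfra and Pi16 were named after their values were seen. Leaving out severe mouse 11 from the other lists and the correlations, the percentages of control and the bound for Ucp1 were added after seeing the data. Alternatives covered background correction, scaling, the detection filter, the choice of probe, the arrays fitted, the test, single arrays left out and the replicate block. Promoters were from RefSeq (GRCm38.p6).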

Additional observations from a re-analysis of the deposited data

Results flagged for a closer look

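In severe cachexia the log2 level of Plin1 in mouse 11 lay far from the other severe mice. The gap to its nearest neighbor was 0.917 of the range of the group, above Dixon's 95% critical value for 4 samples. Levels were 6.40 in mouse 11 and 4.90, 4.91 and 5.02 in mice 13, 15 and 16. In 16 groups of 4 examined this way, 1 was past the limit, and chance gives about 1 in 20.

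Retn, which was not tested, had a detected signal of 14.3 in severe mouse 11 alone. The control signals ran from -7.92 to 11.3, and none of the 4 was detected.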

How the results depend on the processing

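With all arrays 4 of 7 fat genes fell in severe cachexia and 6 of 7 in moderate cachexia. With probes detected on all arrays, which left 4 of the genes, 2 fell in severe and 3 in moderate cachexia. By the methods' t-test, 2 fell in severe cachexia at their threshold (fold of at least 2, unadjusted p under 0.05) and 1 after Benjamini-Hochberg adjustment. Leaving out 1 array at a time gave 1 to 7 in severe cachexia, with 7 without severe mouse 11, 2 without severe mouse 13, severe mouse 15, control mouse 2 or control mouse 3, and 1 without severe mouse 16. It gave 3 to 7 in moderate cachexia, with 3 without moderate mouse 12 and 7 without severe mouse 11. Apart from the replicate block, the other alternatives gave 3 to 4 in severe and 5 to 7 in moderate cachexia, and no fat gene was called higher under any of them. For severe minus moderate, 0 genes passed under every alternative run. Differences that were positive with all arrays and negative with 1 left out were, without severe mouse 11, Adipoq (-0.23), Cidea (-0.24) and Cidec (-0.48), with highest values of 0.43, 1.24 and 0.35 when another array was left out, and Cidec was at -0.12 without moderate mouse 9. The cause was not tested. Over all genes, counts that moved by over 1.5 times were 3376 called in severe cachexia (660 by the methods' t-test at their threshold), 4162 in moderate cachexia (954 by that test, 6262 over all probes, 2602 without moderate mouse 5) and 707 for severe minus moderate (146 by that test and 7 after its adjustment, 409 with no filter, 1151 over all probes, 208 with only the arrays compared, 249 with the replicate block, 193, 392 and 282 without moderate mouse 5, moderate mouse 12 or severe mouse 16).

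Replicate numbers of the labels exist for the deposited ratios alone. With the replicate block on these, 2 fell in severe and 3 in moderate cachexia, against 3 and 5 without the block. Same-numbered samples correlated from -0.35 to 0.13 over 10 pairs, and 1 of 11 samples correlated best with its own number. No pairing was seen in this description, but with so few samples it was not settled whether they share more than a number. Dim probes (Plin1, Fabp4, Retn) and 3 or 4 mice per group limit what can be seen, and p-values rest on that spread.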
